A study of Mus musculus with 12 samples.

Results

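The genes described are 35 transcripts of myeloid cells, complement and phagocytes. They were taken by symbol from the 55450 genes of 2 deposited count tables, and all 35 were found in both. The tables hold messenger RNA from CD4 T cells of mice, either without Pkm2, the M2 form of pyruvate kinase (KO), or wild type (WT). Naive T cells of spleen and lymph nodes, labelled in places as splenocytes, were kept for 24 hours (other labels say overnight) with human interleukin 7 (IL7) at 25 ng/mL, a survival factor of naive T cells. RNA was taken from cells selected positively for CD4. The resting WT and resting KO groups had IL7 alone. For the stimulated WT and stimulated KO groups the plates were in addition coated with anti-CD3 (1 ug/mL) and anti-CD28 (2 ug/mL), antibodies that engage the T cell receptor complex and CD28. There were 4 groups of 3 libraries. The labels do not give the knockout's allele, its driver or the animals' age, nor whether each library is another animal. The p-values therefore weigh a group difference only against the spread between these libraries, and that spread may be technical.

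Macrophages, monocytes and neutrophils carry receptors that bind microbial surfaces, antibody-coated particles and dying cells, and they take these up into phagosomes. Complement is a set of proteins that tag particles for this uptake: C1q binds to immune complexes and dying cells, C4 is cleaved downstream of it, and tissue macrophages are a main source of C1q. Resting T cells are not known for most of these transcripts, and spleen and lymph nodes hold the macrophages, monocytes and dendritic cells that make them. In bulk RNA, fewer cells of a type and less RNA per cell cannot be told apart.

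Resting libraries had 63266477 to 72128433 counts in all and stimulated libraries 67333490 to 76891786. Levels are given in CPM, counts scaled to a common library total. Pkm, which encodes pyruvate kinases M1 and M2, ranged from 424 to 509 CPM in resting WT and from 172 to 195 CPM in resting KO, and from 2450 to 2521 CPM in stimulated WT and from 1036 to 1064 CPM in stimulated KO. All 6 resting libraries had Ddx3y, a Y-linked gene, at 143 to 167 CPM, and all 6 stimulated libraries had it at 0 and Xist, the transcript of the inactive X chromosome, at 941 to 1125 CPM. Condition, deposited table and the sex-linked transcripts therefore change together and cannot be told apart. For the label of CD4 T cells, 12 of their markers were summed. They gave 5663 to 6693 CPM in the resting and 2946 to 3112 CPM in the stimulated libraries, with none at 0. Such sums show that T cell RNA was present and do not measure how pure the cells were. In resting WT replicate 1 the 12 markers summed to 5663 CPM and the 35 genes to 7611 CPM.

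Summed over the 35 genes, the resting libraries held far more of these transcripts than the stimulated ones, and the order of the genotypes was opposite in the 2 conditions. The sum was 7611, 3932 and 2277 CPM in resting WT replicates 1, 2 and 3, and 2142, 2083 and 2165 CPM in resting KO. After stimulation it was 83.7, 142 and 100 CPM in WT and 206, 207 and 194 CPM in KO. WT stood above KO at rest and below KO after stimulation, and the libraries of the genotypes did not overlap in either condition. The WT libraries were spread widely, 4607 ± 2730 CPM at rest and 108 ± 29.8 CPM after stimulation, while the KO libraries lay close together at 2130 ± 42.3 and 202 ± 6.79 CPM (mean ± SD, n = 3). The ratio of the KO to the WT mean was 0.462 ± 0.274 at rest and 1.87 ± 0.517 after stimulation (SD propagated from both groups). The resting mean was 42.5 times the stimulated mean in WT and 10.5 times in KO. No test is given for these sums, since the genes were chosen with results of these data known.

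**Figure D1:**
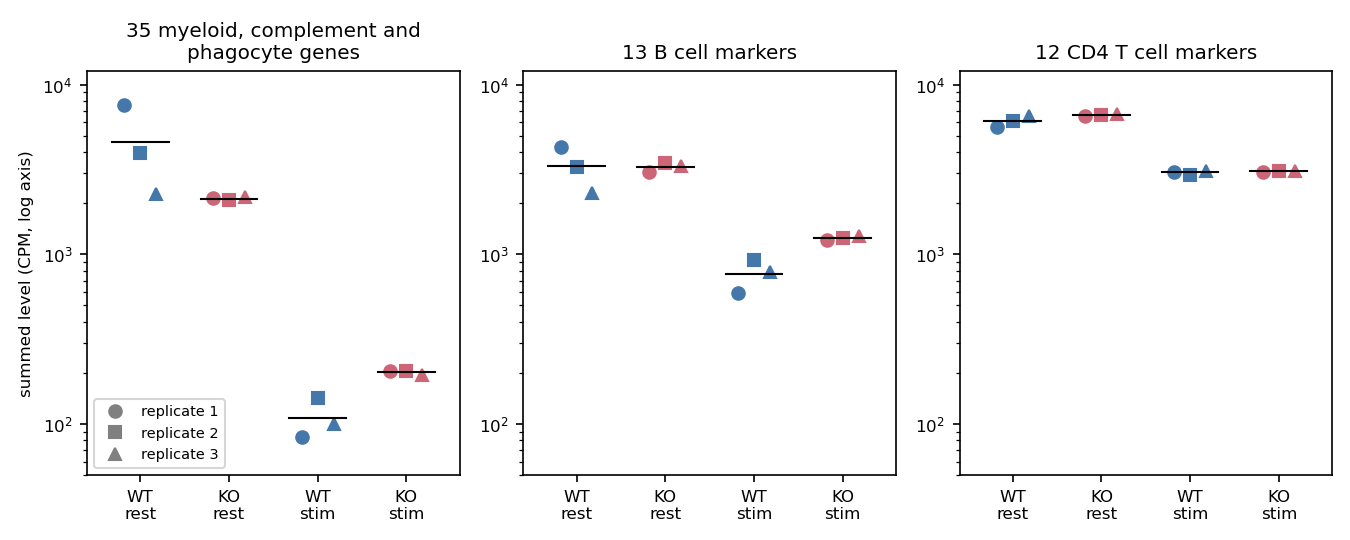
Summed level in CPM (log axis) of the 35 genes, of 13 B cell markers and of 12 CD4 T cell markers in each of the 12 libraries; shapes mark the replicate and lines the group means. The sum of the 35 genes spans 2277 to 7611 CPM in resting WT and 2083 to 2165 CPM in resting KO, and the stimulated KO libraries, at 194 to 207 CPM, lie above the stimulated WT libraries.

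A handful of genes made up a large share of these sums. In resting WT, Lyz2, Vcam1, Csf1r, Mpeg1 and Axl together gave 49.6% of the sum, and in resting KO Lyz2, Mpeg1, Csf1r, Vcam1 and Cybb gave 50.8%. Lyz2, which encodes the lysozyme of macrophages and granulocytes, alone gave 19.2% in resting KO and 11.7% in resting WT. After stimulation Cybb, Mpeg1, Lilrb4a, Axl and Apol7c were the leading genes in both genotypes, with 60.6% of the sum in KO and 60.7% in WT. Per kilobase of exon, the scale on which genes can be compared, Lyz2 had the highest mean in both resting groups (319 ± 77 CPM per kb in WT and 275 ± 10.6 in KO) and Mmp25 the lowest (1.09 ± 0.29 and 0.663 ± 0.149). In stimulated KO, Apol7c stood highest at 13.1 ± 2.71 CPM per kb.

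Other cell types were followed by marker lists in the same libraries. The 13 B cell markers, of which none was at 0 throughout a group, summed to 4313, 3271 and 2313 CPM in resting WT and to 3057 to 3449 CPM in resting KO, so that resting WT had the same order of libraries as for the 35 genes while the ratio of KO to WT was 0.993 ± 0.307. After stimulation they summed to 590, 922 and 789 CPM in WT and to 1217 to 1286 CPM in KO, a ratio of 1.63 ± 0.358 with no overlap. The 10 neutrophil markers summed to 0.764, 12.2 and 2.04 CPM in stimulated WT and 4.26 to 8.30 CPM in stimulated KO. Elane was at 0 in all stimulated libraries and Retnlg in all stimulated WT libraries. The 10 dendritic cell markers summed to 388 to 437 CPM in stimulated WT and 509 to 546 CPM in stimulated KO, with Cd209a at 0 in all 6. Most of that sum was Ccr7, which T cells also express, with means of 318 CPM in WT and 409 CPM in KO. The sum is therefore not a measure of dendritic cells alone. The 7 erythroid markers summed to 1723, 516 and 59.6 CPM in resting WT and to 1693, 224 and 145 CPM in resting KO; KO replicate 1, with an erythroid sum close to that of WT replicate 1, had a sum over the 35 genes close to the other KO libraries. CD4 T cell markers summed to 5663, 6147 and 6499 CPM in resting WT and to 6515, 6644 and 6693 CPM in resting KO, without overlap. Their order of resting WT libraries was the reverse of that for the 35 genes. They gave a ratio of KO to WT of 1.08 ± 0.08 at rest and 1.02 ± 0.03 after stimulation, where the groups overlapped. The part of these other cells in the differences described next was not tested.

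In resting cells, KO was compared with WT by edgeR's quasi-likelihood test across 16637 genes, with p adjusted by Benjamini and Hochberg's method and calls made under 0.05. None of the 35 genes passed, against 0.0361% of all genes tested (6 genes). Their log2 differences nevertheless lay mostly on one side: 34 of 35 were below 0, with a median of -1.08 against 0.01 for all genes, and 21 had an unadjusted p under the threshold, all with KO below WT, against 13.7% of all genes in either direction. In 23 of the 35 every KO library lay below every WT library, as did 10% of all genes, and in 0 of the 35 every KO library lay above, as in 9.86% of all genes. The adjusted p ran from 0.0897 (C4b) to 0.976 (Ms4a4c). DESeq2 called 10 of the 35 lower in KO, and 387 of the 16637 genes.

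The spread between the resting WT libraries was large for most of these genes. WT replicate 1 was the highest of the 6 resting libraries for 32 of the 35 genes, against 23.8% of all genes, and in 26 it was over 2 times WT replicate 3. Relative to the KO mean, the median gene stood at 3.16 in WT replicate 1, 1.81 in replicate 2 and 1.17 in replicate 3. WT replicate 3 lay above every KO library for 24 of the 35. The share of all genes was not counted for this or for the ratio over 2. The coefficient of variation had a median of 55.6% over the WT and 9.11% over the KO resting libraries. Without WT replicate 1, the median log2 difference was -0.62, and again no gene passed.

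**Figure D2:**
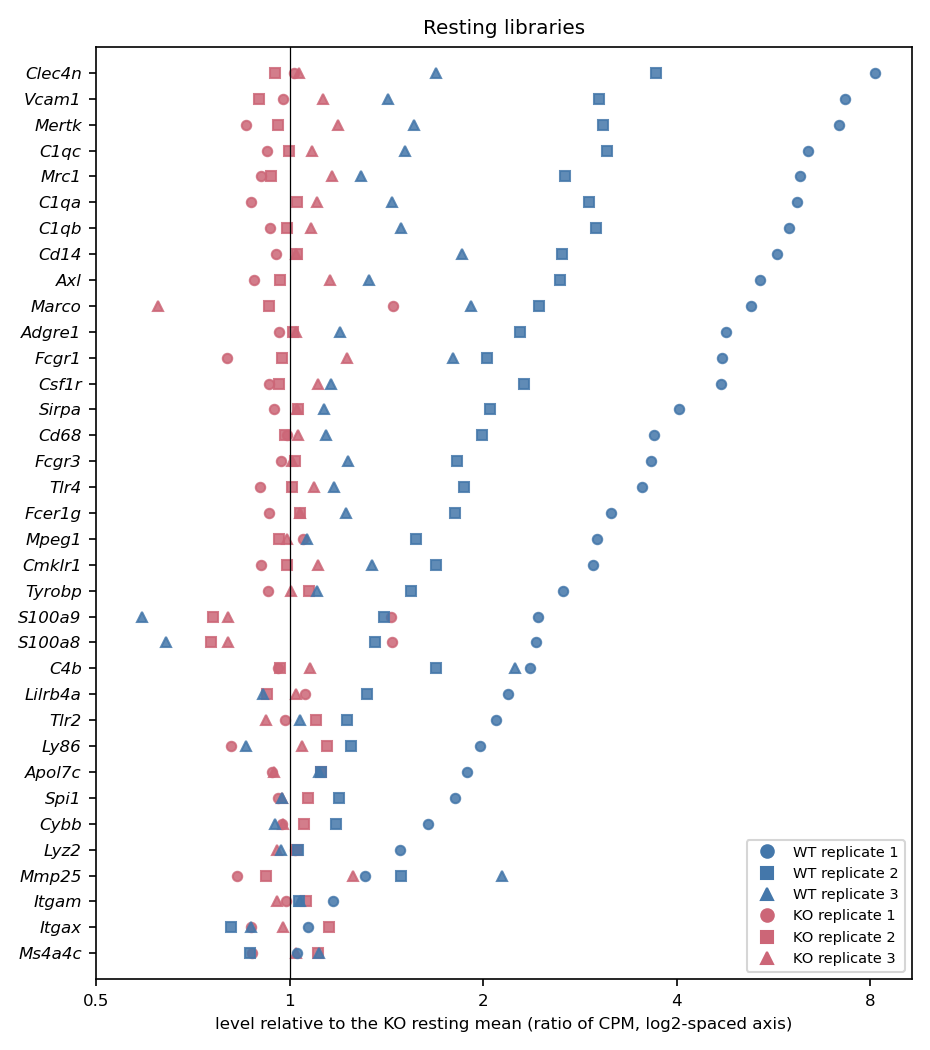
Level of each of the 35 genes in the 6 resting libraries as a ratio to the mean of the KO resting libraries (log2-spaced axis); colour marks the genotype and shape the replicate. WT replicate 1 lies farthest to the right for 32 genes, against 23.8% of all genes. WT replicate 3 lies above every KO library for 24 (share of all genes not counted).

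In stimulated cells the genotypes stood the other way round. Of the 33 genes tested, 14 were higher in KO at an adjusted p under 0.05 and none was lower, against 3.37% higher and 1.4% lower of the 15090 genes tested. Because the genes were chosen with results of these data known, such shares describe the set here and in the other comparisons. They are not a test of it. The 14 were C4b, Mmp25, Cmklr1, Apol7c, Adgre1, Ms4a4c, Cd14, Csf1r, Sirpa, Cybb, Tyrobp, Spi1, Cd68 and Axl. The log2 difference was above 0 for 32 of 33, C1qb being the exception at -0.04 ± 0.49 (SE), and the median was 0.77 against -0.00016 for all genes. In 24 genes every KO library lay above every WT library, as did 13.4% of all genes. Fcgr1 and Mrc1 had too few counts to be tested.

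The number of calls rested on single libraries. WT replicate 2 was the highest of the 3 stimulated WT libraries for 30 of the 33 genes, against 41.3% of all genes. Without it 26 of the 33 passed, and without WT replicate 1 or 3 the count was 5 or 2. Without KO replicate 1, 2 or 3 it was 3, 3 or 4, and in 1 fit over all 12 libraries it was 4. The calls over all genes moved as well, from 719 to 1408 without WT replicate 2, to 458 and 262 without WT replicates 1 and 3, to 221, 128 and 161 without KO replicates 1, 2 and 3, and to 219 in the fit over 12 libraries. Mmp25 passed in each of these fits; Axl missed without KO replicate 3 (edgeR adjusted p = 0.0517) and in the fit over 12 libraries, and Apol7c missed without WT replicate 3 (edgeR adjusted p = 0.0502). The log2 differences of all 14 stayed above 0 throughout.

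**Figure D3:**
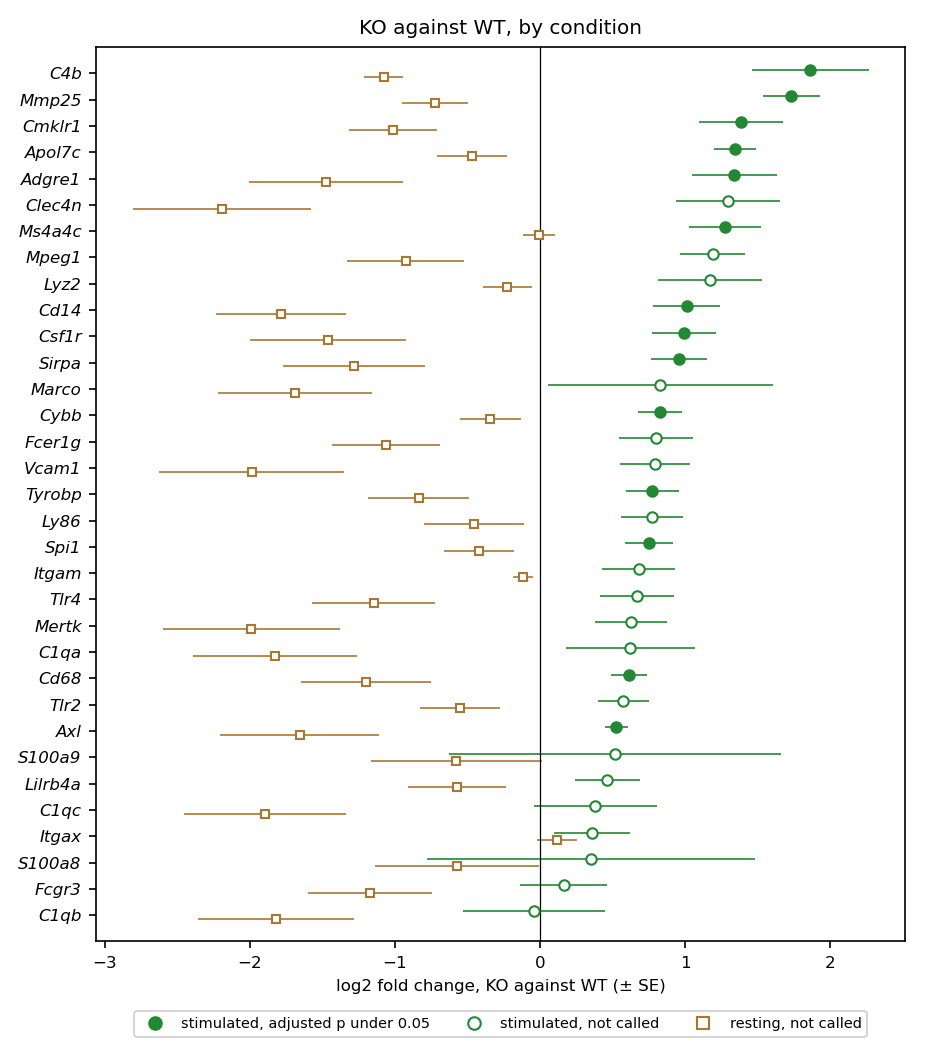
Log2 fold change of KO against WT with its standard error for the 33 genes tested in stimulated cells (circles, filled where the adjusted p was under 0.05) and for the same genes in resting cells (squares, none under 0.05). The 14 filled circles run from 0.53 for Axl to 1.86 for C4b, while the squares lie below 0 except for Itgax at 0.12.

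Whether the genotype difference itself differed between conditions was tested as an interaction over all 12 libraries. The difference, stimulated minus resting, passed for 5 of the 35 genes, all above 0, against 0.556% of the 17460 genes tested that passed in that direction. They were C4b (2.92 ± 0.44, SE, edgeR adjusted p = 0.016), Cd14 (2.77 ± 0.53, edgeR adjusted p = 0.049), Mmp25 (2.44 ± 0.34, edgeR adjusted p = 0.015), Cmklr1 (2.38 ± 0.46, edgeR adjusted p = 0.043) and Apol7c (1.80 ± 0.30, edgeR adjusted p = 0.036). The estimate was above 0 for all 35, with a median of 1.80 against -0.01 for all genes, and 27 had an unadjusted p under 0.05, against 15.9% of all genes in either direction. Leaving out 1 library at a time, the count ran from 1 to 20, the highest without WT resting replicate 3, where 1646 of 17900 genes passed in place of 121. Mmp25 passed in all 12 such fits and C4b in 10, missing without WT stimulated replicate 1 or 3. Apol7c and Cmklr1 each passed in 3 of the 12 and Cd14 in 2.

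Spi1 and Csf1r set the identity of myeloid cells: Spi1 encodes the ETS factor PU.1, on which myeloid cells and B cells depend, and Csf1r the receptor for the macrophage growth factors CSF1 and IL34. Csf1r stood at 816, 402 and 202 CPM in resting WT and at 162, 167 and 193 CPM in resting KO. In stimulated cells it was at 0.949, 1.16 and 0.638 CPM in WT and 1.5, 2.05 and 1.86 CPM in KO. Both comparisons were without overlap, with WT above KO at rest and below it after stimulation. The log2 difference was -1.46 ± 0.54 at rest (edgeR adjusted p = 0.35) and 0.99 ± 0.22 after stimulation (edgeR adjusted p = 0.036). Spi1 was at 55.7, 36.8 and 30.0 CPM in resting WT and 29.6, 33.0 and 30.0 CPM in resting KO, where the groups overlapped. It was at 3.15, 5.43 and 4.47 CPM in stimulated WT and 7.25, 6.98 and 7.58 CPM in stimulated KO, and was higher in KO there with no overlap, by 0.75 ± 0.16 on the log2 scale (edgeR adjusted p = 0.039).

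Of the 4 complement genes only C4b passed in stimulated cells. C1qa, C1qb and C1qc, the chains of C1q, are neighbours on the minus strand of chromosome 4 (mm10, chr4:136880129-136898803 from the end of C1qb to the start of C1qa). At rest C1qa stood at 334, 159 and 78.4 CPM in WT and 47.4, 55.8 and 60.0 CPM in KO. C1qb stood at 270, 135 and 67.1 CPM in WT and 42.0, 44.7 and 48.6 CPM in KO. C1qc stood at 335, 163 and 78.8 CPM in WT and 48.1, 52.1 and 56.5 CPM in KO. The 3 chains kept the same order of WT libraries, with all WT libraries above all KO libraries, and their log2 differences were -1.82 ± 0.57, -1.82 ± 0.54 and -1.89 ± 0.56 without passing (edgeR adjusted p = 0.32 for each). After stimulation C1qa was at 0.316, 0.841 and 0.334 CPM in WT and 1.01, 0.853 and 0.420 CPM in KO. C1qb was at 0.271, 0.888 and 0.243 CPM in WT and 0.512, 0.506 and 0.330 CPM in KO, and C1qc at 0.196, 0.539 and 0.258 CPM in WT and 0.446, 0.578 and 0.255 CPM in KO. The highest WT library was replicate 2 in each, the groups overlapped in all 3, and none passed; without WT replicate 2 the value of C1qb was 0.80. C4b (chr17:34728380-34743882, minus strand) encodes complement C4. It was at 15.2, 10.8 and 14.4 CPM in resting WT and 6.16, 6.21 and 6.91 CPM in resting KO. After stimulation it was at 0.181, 0.333 and 0.182 CPM in WT and 0.777, 1.26 and 0.480 CPM in KO. At rest WT replicate 1 of C4b was 1.05 times replicate 3, and all WT libraries lay above all KO libraries. Its log2 difference was -1.08 ± 0.13 at rest, which missed the threshold (edgeR adjusted p = 0.0897), and 1.86 ± 0.40 after stimulation (edgeR adjusted p = 0.034). Of the 50-base stretches of its transcripts, 34.6% also occur in C4a, so part of its count could belong to that gene.

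Fc receptors bind antibody on coated particles, and Fcer1g and Tyrobp are the adaptors that carry their signal and that of related receptors. Tyrobp stood at 133, 77.1 and 55.0 CPM in resting WT and 46.3, 53.4 and 50.2 CPM in resting KO, without overlap. It stood at 1.21, 2.13 and 1.66 CPM in stimulated WT and 2.83, 2.80 and 2.83 CPM in stimulated KO, where all KO libraries were higher and the difference of 0.77 ± 0.18 passed (edgeR adjusted p = 0.043). Fcer1g had a log2 difference of -1.06 ± 0.37 at rest and 0.80 ± 0.26 after stimulation, and neither passed. Fcgr3, the activating low-affinity receptor for IgG, had -1.17 ± 0.43 at rest and 0.16 ± 0.30 after stimulation. Fcgr1, the high-affinity receptor, averaged 14.8 ± 8.44 CPM in resting WT and 5.22 ± 1.13 CPM in resting KO, and had 1 to 8 counts in each stimulated library.

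Receptors for microbial products and debris made up the largest group, with 8 genes, of which Cd14 and Cd68 passed in stimulated cells. Cd14 encodes the coreceptor that passes bacterial lipopolysaccharide to Tlr4. It stood at 26.1, 12.1 and 8.44 CPM in resting WT and at 4.34, 4.67 and 4.65 CPM in resting KO. In stimulated cells it stood at 0.422, 0.476 and 0.471 CPM in WT and 0.744, 1.13 and 0.869 CPM in KO. Neither comparison had overlapping groups, and the stimulated WT libraries of Cd14 were close together, with a coefficient of variation of 6.54% against a median of 37.7% over the 35 genes. In stimulated cells KO was higher by 1.01 ± 0.23 on the log2 scale (edgeR adjusted p = 0.037). Tlr4 itself was at 25.4, 13.5 and 8.42 CPM in resting WT and 6.47, 7.26 and 7.86 CPM in resting KO. It was at 0.482, 0.920 and 0.577 CPM in stimulated WT and 0.942, 1.21 and 0.959 CPM in stimulated KO, without overlap. Its log2 differences of -1.15 ± 0.42 and 0.67 ± 0.26 did not pass. Ly86, a partner of a Toll-like receptor relative that B cells also carry, was at 49.9, 31.4 and 21.6 CPM in resting WT and 20.5, 28.9 and 26.4 CPM in resting KO. In stimulated cells it was at 4.58, 8.79 and 6.30 CPM in WT and 10.6, 10.8 and 12 CPM in KO. Only the stimulated groups were apart, and the log2 difference of 0.77 ± 0.22 there did not pass (edgeR adjusted p = 0.11).

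Cd68, a lysosomal glycoprotein of macrophages, stood at 105, 56.7 and 32.4 CPM in resting WT and 28.1, 27.9 and 29.3 CPM in resting KO. After stimulation it stood at 3.39, 4.12 and 3.31 CPM in WT and 5.62, 6.09 and 4.75 CPM in KO. The groups were apart in both conditions, and the difference of 0.61 ± 0.13 between KO and WT in stimulated cells passed (edgeR adjusted p = 0.026). Mrc1, the mannose receptor, stood at rest at 330, 142 and 68.5 CPM in WT and 47.9, 49.6 and 61.7 CPM in KO, without overlap. It was nearly absent after stimulation, with 4, 10 and 2 counts in WT and 4, 2 and 4 counts in KO, so no genotype fold is given there. Clec4n, a C-type lectin that binds fungal sugars, had the largest negative value of the 35 at rest, -2.19 ± 0.61 (edgeR adjusted p = 0.31), and 1.29 ± 0.36 after stimulation (edgeR adjusted p = 0.081). Marco, a scavenger receptor, had -1.69 ± 0.53 and 0.83 ± 0.77, and Tlr2 had -0.55 ± 0.28 and 0.57 ± 0.18, and none of these passed.

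Axl and Mertk are related receptor kinases that bind Gas6 and protein S on dying cells and start their clearance. Axl stood at 492, 240 and 121 CPM in resting WT and 80.3, 88.2 and 105 CPM in resting KO, without overlap. After stimulation it stood at 11.5, 12.4 and 14.2 CPM in WT and 17.5, 17.5 and 19.7 CPM in KO. The KO libraries were all higher there, with the WT libraries close together, and the difference of 0.53 ± 0.08 passed (edgeR adjusted p = 0.0084). Mertk was at 99.4, 42.7 and 21.7 CPM in resting WT and 11.9, 13.3 and 16.5 CPM in resting KO. It was at 0.452, 0.777 and 0.486 CPM in stimulated WT and 0.942, 0.911 and 0.779 CPM in stimulated KO. Both comparisons of Mertk were without overlap, and its log2 differences of -1.99 ± 0.61 and 0.63 ± 0.25 did not pass.

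Of the 4 adhesion and surface proteins Adgre1 passed in stimulated cells. Vcam1, an adhesion molecule also displayed by spleen macrophages, was at 931, 385 and 181 CPM in resting WT and 124, 114 and 143 CPM in resting KO. It was at 1.49, 2.24 and 1.31 CPM in stimulated WT and 3.44, 3.15 and 2.08 CPM in stimulated KO. At rest all WT libraries were higher, the stimulated groups overlapped, and the values of -1.99 ± 0.64 and 0.79 ± 0.24 did not pass. Adgre1, which encodes a surface protein used to mark mouse macrophages, was at 217, 104 and 54.5 CPM in resting WT and 43.8, 46.1 and 46.5 CPM in resting KO. It was at 0.467, 1.05 and 0.729 CPM in stimulated WT and 1.65, 2.47 and 1.5 CPM in stimulated KO, without overlap in either condition. In stimulated cells KO was higher by 1.34 ± 0.29 (edgeR adjusted p = 0.037). Itgam and Itgax, neighbours on chromosome 7 that encode integrin chains of myeloid and dendritic cells, had resting values of -0.12 ± 0.07 and 0.12 ± 0.14, with WT means of 42.8 ± 3.07 and 48.2 ± 7.0 CPM and KO means of 39.6 ± 2.15 and 52.6 ± 7.41 CPM. In stimulated cells their values were 0.68 ± 0.25 and 0.36 ± 0.26 and did not pass. Of the stretches of Itgam, 66.3% are shared with the overlapping gene Gm49368.

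Sirpa, Lilrb4a and Cmklr1 encode surface receptors that restrain or steer phagocytes. Sirpa, which binds CD47 on other cells and inhibits their uptake, was at 378, 192 and 106 CPM in resting WT and 88.7, 96.4 and 96.2 CPM in resting KO. It was at 3.25, 5.39 and 3.34 CPM in stimulated WT and 8.44, 7.98 and 6.70 CPM in stimulated KO. The groups were apart in both conditions, and the difference of 0.96 ± 0.20 between KO and WT in stimulated cells passed (edgeR adjusted p = 0.038). Cmklr1, the receptor of the attractant chemerin, was at 14.7, 8.39 and 6.66 CPM in resting WT and 4.48, 4.91 and 5.50 CPM in resting KO. It was at 0.452, 0.666 and 0.304 CPM in stimulated WT and 1.54, 1.19 and 0.974 CPM in stimulated KO. Again neither comparison had overlapping groups, and the value was -1.01 ± 0.31 at rest (edgeR adjusted p = 0.31) and 1.38 ± 0.29 after stimulation (edgeR adjusted p = 0.028). Lilrb4a, an inhibitory receptor, had -0.57 ± 0.34 and 0.46 ± 0.23 without passing, and 46.7% of its stretches are shared with Gm49339 and Lilr4b.

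The 6 genes of killing, inflammation and tissue breakdown had a median value of -0.57 at rest, against -1.08 for the 35 genes, and Cybb and Mmp25 passed in stimulated cells. Lyz2 stood at 536, 373 and 350 CPM in resting WT and 368, 371 and 346 CPM in resting KO, and the groups overlapped. It stood at 1.69, 4.41 and 2.43 CPM in stimulated WT and 6.36, 7.59 and 5.07 CPM in stimulated KO. The stimulated KO libraries were all higher, but the value of 1.17 ± 0.36 did not pass (edgeR adjusted p = 0.15), and 15.4% of its stretches are shared with Lyz1. Cybb, the membrane subunit of the phagocyte NADPH oxidase, was at 173, 124 and 99.8 CPM in resting WT and 102, 111 and 103 CPM in resting KO. It was at 15.9, 24.7 and 19.7 CPM in stimulated WT and 33.7, 35.9 and 36.8 CPM in stimulated KO. Only the stimulated groups were apart, with KO higher by 0.83 ± 0.15 (edgeR adjusted p = 0.042). Mpeg1, which encodes a pore-forming protein of phagosomes, had -0.92 ± 0.40 in resting cells and 1.19 ± 0.22 after stimulation (edgeR adjusted p = 0.062), from a mean of 16.2 ± 5.06 CPM in stimulated WT to 36.7 ± 0.68 CPM in stimulated KO.

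S100a8 and S100a9, partners in calprotectin and abundant in neutrophils, lie close to each other on chromosome 3. S100a9 stood at 69.8, 40.1 and 16.9 CPM in resting WT and 41.2, 21.8 and 22.9 CPM in resting KO. It stood at 0.467, 8.68 and 1.22 CPM in stimulated WT and 5.01, 6.74 and 2.85 CPM in stimulated KO. S100a8 stood at 45.7, 25.6 and 12.1 CPM in resting WT and 27.3, 14.2 and 15.2 CPM in resting KO, and at 0.256, 4.51 and 0.456 CPM in stimulated WT and 2.41, 2.56 and 1.57 CPM in stimulated KO. The groups of both genes overlapped in both conditions, and stimulated WT replicate 2 was the highest of the 6 stimulated libraries, as it was for the neutrophil markers. Without that library the log2 differences in stimulated cells were 2.61 for S100a8, which then passed, and 2.54 for S100a9. With all libraries neither gene passed (edgeR adjusted p = 0.70 and 0.72 at rest and 0.90 and 0.85 after stimulation for S100a8 and S100a9).

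Mmp25, a membrane-anchored matrix metalloproteinase of leukocytes on chromosome 17 (chr17:23628311-23645277, minus strand), gave the lowest adjusted p of the 35 genes. It stood at 4.6, 5.23 and 7.52 CPM in resting WT and 2.91, 3.22 and 4.41 CPM in resting KO. It stood at 0.527, 0.809 and 0.866 CPM in stimulated WT and 2.69, 2.11 and 2.49 CPM in stimulated KO. Unlike 32 of the other genes it was not highest in WT replicate 1 at rest, and its groups did not overlap in either condition. The value was -0.72 ± 0.23 at rest (edgeR adjusted p = 0.31) and 1.73 ± 0.20 after stimulation (edgeR adjusted p = 0.0025). The transcripts AC154766.2 and AC154766.3 overlap it on the other strand.

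Apol7c and Ms4a4c belong to the apolipoprotein L and MS4A families. Apol7c was at 47.3, 28.0 and 27.8 CPM in resting WT and 23.5, 28.0 and 23.6 CPM in resting KO. It was at 10.7, 10.6 and 10.8 CPM in stimulated WT and 33.4, 25.0 and 22.8 CPM in stimulated KO. The stimulated WT libraries were nearly equal and the KO libraries stood at or near the resting KO level, and KO was higher than WT by 1.34 ± 0.14 there (edgeR adjusted p = 0.0079). Of its stretches, 25.6% are shared with Gm8221, Apol7a and Apol7e. Ms4a4c was at 42.6, 36.0 and 46.2 CPM in resting WT and 36.2, 45.9 and 42.5 CPM in resting KO, with a value of -0.01 ± 0.11. It was at 3.10, 6.12 and 3.58 CPM in stimulated WT and 8.96, 10.8 and 11.0 CPM in stimulated KO. Its resting groups overlapped and its stimulated groups did not, with KO higher by 1.27 ± 0.25 (edgeR adjusted p = 0.047).

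**Figure D4:**
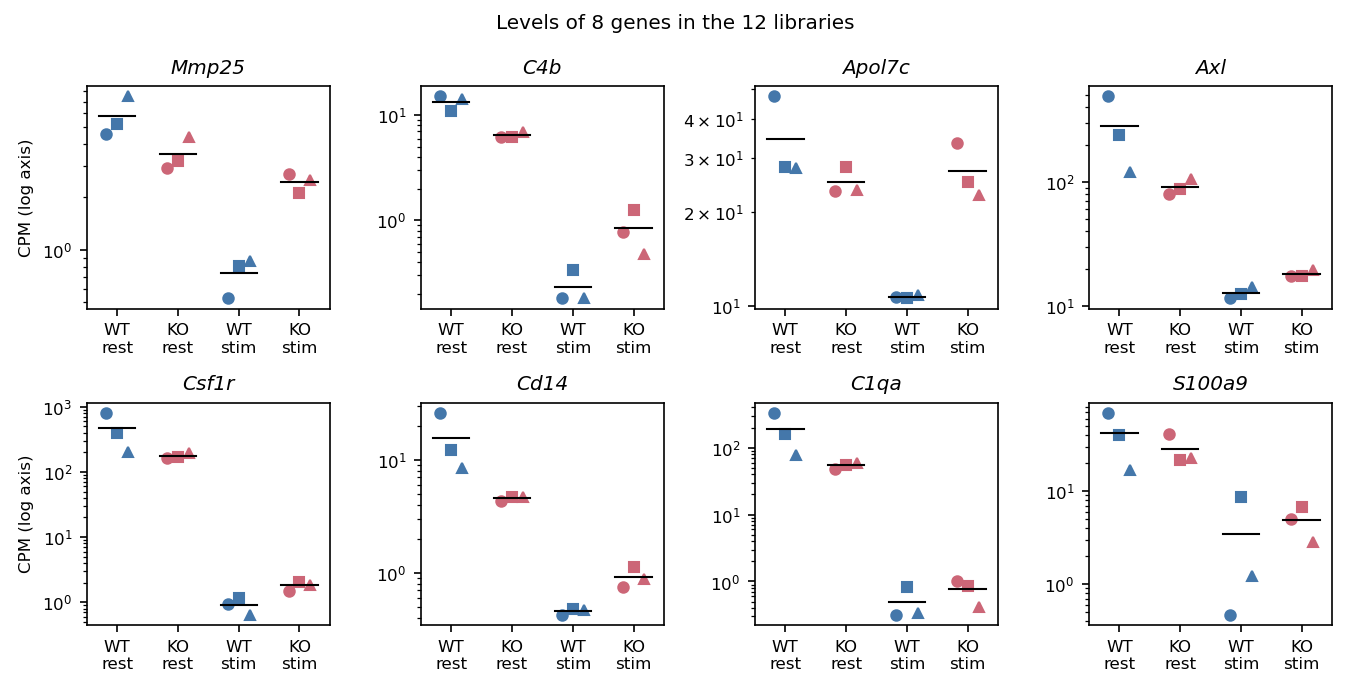
Levels in CPM (log axes that differ between panels) of Mmp25, C4b, Apol7c, Axl, Csf1r, Cd14, C1qa and S100a9 in the 12 libraries; shapes mark replicates 1 (circle), 2 (square) and 3 (triangle), and lines the group means. In stimulated cells all KO libraries lie above all WT libraries for Mmp25, C4b, Apol7c, Axl, Csf1r and Cd14, while S100a9 ranges from 0.467 to 8.68 CPM within WT.

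Promoters were searched because 14 of the genes were higher together in stimulated KO. RefSeq promoter entries (build GRCm38.p6) were found for 23 of the 35 genes, with 24 promoters, and the 250 bases before each start were searched on both strands for 3 motifs. Of the 14 genes, C4b, Adgre1, Cd14, Csf1r, Sirpa, Tyrobp and Spi1 had no entry and were not searched. Mmp25, Ms4a4c, Cd68 and Axl were searched and held no match. The interferon response element GAAANNGAAA was in 2.98% of all 32851 promoters and in those of Apol7c and Cybb. The composite element of ETS and IRF factors, GGAANNGAAA, was in 2.30% of all and in that of Cmklr1. The PU.1 motif GAGGAAGT was in 2.44% of all and in those of C1qc and S100a8, which are not printed. In the promoters of the 35 genes no match of one motif overlapped one of another. The 3 promoters with a match among the genes that passed are shown 5′ to 3′ on the strand of the gene, all minus. The matches of the first 2 motifs are in capitals. Apol7c (chr15:77533316-77533565) has 2 overlapping matches 55 to 46 and 49 to 40 bases before the start, Cybb (chrX:9469325-9469574) has 3 at 168 to 159, 124 to 115 and 29 to 20, and Cmklr1 (chr5:113643604-113643853) has 1 at 122 to 113. A match describes the letters of the window and is not a measured binding site.
Apol7c: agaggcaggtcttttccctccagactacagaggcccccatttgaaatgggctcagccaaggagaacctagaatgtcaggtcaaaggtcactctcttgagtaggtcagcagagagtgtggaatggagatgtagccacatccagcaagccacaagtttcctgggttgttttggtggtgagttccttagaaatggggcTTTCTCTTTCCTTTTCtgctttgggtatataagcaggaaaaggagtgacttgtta
Cybb: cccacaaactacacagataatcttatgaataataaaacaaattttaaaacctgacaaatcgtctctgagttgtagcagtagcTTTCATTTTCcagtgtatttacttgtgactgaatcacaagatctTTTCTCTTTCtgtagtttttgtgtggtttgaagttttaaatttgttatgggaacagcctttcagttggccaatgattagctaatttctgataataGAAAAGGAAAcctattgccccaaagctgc
Cmklr1: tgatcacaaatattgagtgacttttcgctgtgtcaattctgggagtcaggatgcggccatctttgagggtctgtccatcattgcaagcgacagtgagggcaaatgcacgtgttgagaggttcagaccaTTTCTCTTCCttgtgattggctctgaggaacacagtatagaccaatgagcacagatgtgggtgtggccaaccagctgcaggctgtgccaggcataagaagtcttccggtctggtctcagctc

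These transcripts were lower in the stimulated than in the resting libraries of both genotypes. In WT 35 of 35 genes were lower in stimulated than in resting cells, against 44.8% of 17460 genes tested, and in KO 33 of 35, against 43.2%. The median log2 difference was -5.09 in WT and -2.93 in KO, with -0.14 and -0.11 over all genes. In terms of means, the resting level of the median gene was 34.1 times the stimulated level in WT and 7.67 times in KO. For Csf1r these ratios were 517 and 96.3, for C1qa 383 and 71.6, for Lyz2 148 and 57.1, for Cybb 6.58 and 2.97 and for Mmp25 7.88 and 1.45. The genes that did not pass in KO were Apol7c, at 0.11 ± 0.21 (edgeR adjusted p = 0.63; below 0 without KO stimulated replicate 1) against -1.68 ± 0.22 in WT, and Lilrb4a, at -0.20 ± 0.31 (edgeR adjusted p = 0.55) against -1.22 ± 0.31 in WT. After stimulation 16 of the 35 genes had a mean under 1 CPM in WT and 9 in KO, where none had at rest. The floor of 3 counts per library lay at 0.0390 to 0.0474 CPM. Other lists fell with stimulation too. In WT and KO the median log2 difference was -5.74 and -3.85 for other macrophage identity genes and -5.55 and -4.69 for neutrophil markers. It was -4.61 and -5.26 for erythroid, -4.60 and -3.62 for platelet and -3.07 and -2.51 for NK cell markers. For B cell markers it was -2.14 and -1.30, for dendritic cell markers -2.20 and -1.39, and for CD4 T cell markers -0.88 and -0.97.

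Other genes of the same pathways were counted from lists that hold none of the 35. In resting cells 0 of their members passed in KO against WT with edgeR, against 0.0361% of all genes tested. An unadjusted p under 0.05 was found for 6 of 14 complement and 2 of 13 Fc receptor and adaptor genes. It was found for 15 of 20 macrophage identity and 11 of 15 phagosome and lysosome genes, against 13.7% of all genes. In stimulated cells 3.37% of all genes tested were higher in KO and 1.4% were lower, the shares beside which the next counts stand. Of 11 other complement genes tested 2 were higher in KO and none was lower. They were Cfb, complement factor B of the alternative pathway (1.07 ± 0.18, log2), and C1ra, a protease of the C1 complex (0.96 ± 0.22). Cfb was at 8.17, 12.3 and 9.42 CPM in stimulated WT and 19.1, 24.7 and 18.4 CPM in stimulated KO, and unlike the 35 genes its stimulated KO libraries lay above its resting KO libraries at 6.10 to 6.89 CPM. Of 10 other Fc receptor and adaptor signalling genes tested, 2 were higher, among them Pirb, an inhibitory receptor (0.99 ± 0.17). Of 17 other macrophage identity genes 2 were higher: Stab1, a scavenger receptor (1.10 ± 0.21), and Csf2rb, the shared chain of cytokine receptors such as that for GM-CSF (0.94 ± 0.15). Of 14 other phagosome and lysosome genes 2 were higher: Slc11a1, a metal transporter of the phagosome (0.77 ± 0.17), and Lgmn, a lysosomal protease (0.52 ± 0.12). None of these 4 lists had a gene that was lower. The median log2 difference was 0.46, 0.71, 0.71 and 0.25 in the order named, against -0.00016 for all genes.

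The marker lists of other cells were read the same way in stimulated cells, where 3.37% of all genes tested were higher in KO and 1.4% were lower. Of 13 B cell markers 1 was higher in KO, Ighd, the constant region of IgD (0.94 ± 0.15). The list's median was 0.78, close to the 0.77 of the 33 tested of the 35 genes. All 13 B cell markers were above 0, and 12 had an unadjusted edgeR p under 0.05, against 20.6% of all genes in either direction. Of the 33 genes, 32 were above 0 and 24 had such a p. Of 6 dendritic cell markers tested 3 were higher: Flt3 (1.40 ± 0.28), Fscn1 (1.10 ± 0.11) and Ccr7 (0.37 ± 0.04), of which T cells also express Ccr7. Of 12 CD4 T cell markers 1 was lower, Lef1 (-0.17 ± 0.04). None of 5 neutrophil, 7 NK cell, 5 erythroid and 2 platelet markers tested passed, and of 2 mast cell and basophil markers Kit was higher (1.32 ± 0.21). All neutrophil, NK cell and platelet markers tested were above 0, with median log2 differences of 0.35, 0.42 and 1.13. All 5 erythroid markers tested were below 0, with a median of -1.05.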

How the data were processed

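Count tables were analysed as the authors deposited them: the values are RSEM expected counts, which can be fractional, with the 6 resting and the 6 stimulated libraries in separate tables. The submitters' processing notes list RSEM 1.3.1, STAR 2.7.0f, cutadapt 1.18, bcl2fastq 2.20 and build mm10, without roles or settings. Per the labels' protocols a stranded library kit was used; the sources used here do not say if the strand was used in counting. Genes with antisense partners (7 of the 35) or close copies are therefore uncertain. The letters in the column names are those the labels give for the libraries.

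Expected counts were rounded. Genes were kept by filterByExpr (at least 10 counts, total at least 15). The robust quasi-likelihood F-test of edgeR 4.0.16 (R 4.3.3) was run after TMM scaling, with Benjamini-Hochberg adjustment over all genes and calls at 0.05. The genotypes were compared in the 6 libraries of each condition; stimulation and the difference of genotype effects came from 1 fit of 4 group means over 12 libraries. Gene levels use the TMM-scaled library size of that fit, and sums the unscaled total. The standard error is the log2 fold change divided by the square root of F. Replicates of a group differed by more than sampling noise in every pair (chi-square per degree of freedom 3.97 to 143), so all were counted. The fits were tested on simulated data.

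Coordinates, exon lengths and 50-base stretches shared between transcripts came from GENCODE M21 by gene identifier. Members and lists were chosen with earlier results of these data known. Values in every library are given for members that passed between genotypes, for the member of each role with the highest mean and for partners of 1 complex; of other lists at most 3 genes that passed are named, except Elane, Retnlg and Cd209a at 0. Alternatives were DESeq2 size factors, the DESeq2 1.42.0 Wald test, no filter, a filter of 1 CPM in 3 libraries, the replicate number as a block, 1 fit for all libraries and each library left out. A gene of the Fc receptor and adaptor list is not reported here.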

Additional observations from a re-analysis of the deposited data

Results flagged for a closer look

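For 5 of the 35 genes the genotype effect differed between conditions by a test of the difference itself, the interaction in edgeR's quasi-likelihood fit over 12 libraries. The log2 effect of KO in stimulated cells minus that in resting cells was 2.92 for C4b, 2.77 for Cd14, 2.38 for Cmklr1, 2.44 for Mmp25 and 1.80 for Apol7c. For C4b, Cd14, Cmklr1 and Mmp25 every KO library lay below every WT library at rest and above every WT library after stimulation. For Apol7c the resting groups overlapped and the stimulated groups did not. The stimulated side of 3 of these effects rests on few counts per library. C4b had 12 to 21 in WT and 32 to 87 in KO, Cd14 28 to 31 and 45 to 78, and Cmklr1 20 to 42 and 65 to 93. Condition cannot be told apart from deposited table and the sex-linked transcripts. Groups of 3 libraries are too small for a test of single outlying libraries.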

How the results depend on the processing

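The count of genes that passed depended on the fit more than their directions did. At rest it was 0, and 10 by the DESeq2 Wald test, 1 with no filter (C4b), 1 with the replicate block (Marco), 1 in the fit over 12 libraries (Cd14) and 0 without any single library. In stimulated cells it was 14, 4 in the fit over 12 libraries and 2 to 26 when 1 library was left out. With the replicate block it was 18, which kept all 14. With the filter of 1 CPM in 3 libraries it was 12 of 23 genes tested. C4b, Cd14 and Cmklr1 did not meet that filter in stimulated cells. For the difference of genotype effects the count was 5, 24 by the DESeq2 Wald test, 2 with no filter, 3 with the replicate block and 1 to 20 when 1 library was left out. Calls over all genes moved as well. At rest they were 6, then 518 by the DESeq2 Wald test and 40 with no filter. The replicate block gave 5 and the fit over 12 libraries 161. In stimulated cells they were 719, then 996 with the replicate block and 219 in the fit over 12 libraries. For the difference they were 121, then 1012 by the DESeq2 Wald test, 144 with no filter and 95 with the replicate block. The cause was not tested. The fall with stimulation kept 35 genes in WT under every alternative run and 31 to 33 in KO. The summed ratio of KO to WT stayed between 0.369 and 0.686 at rest and between 1.67 and 2.2 after stimulation.

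Whether the replicate numbers pair the libraries could not be decided from the counts. Over 10986 genes the deviations of same-numbered WT and KO libraries correlated at 0.37, -0.24 and 0.37 at rest. After stimulation they correlated at -0.08, 0.14 and 0.18. Libraries with other numbers ran from -0.45 (WT 3 with KO 1) to 0.38 (WT 3 with KO 2) at rest. After stimulation they ran from -0.24 (WT 2 with KO 3) to 0.15 (WT 1 with KO 3).

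Between genotypes directions turned in 11 cases, all of genes that had not passed, and with stimulation Apol7c in KO also turned, without KO replicate 1. With the replicate block C1qb in stimulated cells was at 0.10. When 1 library was left out, S100a9 at rest ran from -0.96 to 0.0026 and Ms4a4c from -0.10 to 0.077. In stimulated cells C1qb ran from -0.36 to 0.80, Fcgr3 from -0.059 to 0.56, S100a8 from -0.17 to 2.61 and S100a9 from -0.012 to 2.54. With 1 to 10 counts per stimulated library, differences of Fcgr1 and Mrc1 were not detectable at this depth.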
